A study of Homo sapiens with 15 samples.

Results

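The miR-26 family in human cells comes from 3 hairpins and gives 5 mature arms, hsa-miR-26a-5p, hsa-miR-26b-5p, hsa-miR-26a-1-3p, hsa-miR-26a-2-3p and hsa-miR-26b-3p. The arms were taken by name, as every row that starts with hsa-miR-26a- or hsa-miR-26b-. All 5 were among the 2418 mature miRNAs counted in the FTO knockdown experiment, and 4 were among the 2189 counted after RNA immunoprecipitation (RIP-seq). The arm hsa-miR-26a-1-3p was listed in the knockdown counts only, and its level in the RIP-seq libraries was not analysed here.

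The study asked whether adenosines in miRNAs carry N6-methylation (m6A) and whether FTO, an enzyme that removes this mark, influences miRNA levels. Small RNA was sequenced from FTO1C1, FTO2D4 and FTO3C3, clones of the Flp-In 293 T-Rex derivative of the human embryonic kidney line HEK293, used uninduced. Each clone gave 1 library in each of 5 groups, so each group had 3 libraries. For the FTO siRNA and scrambled siRNA groups, cells were transfected with 10 nM siRNA by lipofectamine and harvested after 48 h. For the other 3 groups no siRNA was stated, and whether the cells were treated is not given. Their small RNA was sequenced directly (input), after precipitation with an anti-m6A antibody (m6A) or after precipitation with a mouse IgG isotype control (IgG). Separate cultures within a clone were not stated, so all p-values concern these 3 clones of 1 cell line. Those of the edgeR fits with the clone as a block rest on differences within the clones, with variance shared over all miRNAs. Those of the exact permutation tests compare the libraries without the pairing by clone. The FTO transcript is no miRNA, so the extent of the knockdown was not analysed here.

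A miRNA hairpin is cut into a 5p and a 3p arm, of which the guide is kept by the Argonaute protein and the passenger is mostly degraded. The 5p arms are the guides of the miR-26 family. They pair with target mRNAs through the seed, bases 2 to 8, and are known to repress EZH2, the catalytic subunit of Polycomb repressive complex 2, and LIN28B, an inhibitor of let-7 maturation. The hairpins lie in the genes CTDSPL, CTDSP2 and CTDSP1, which encode small phosphatases of the RNA polymerase II C-terminal domain, and the family is widely expressed and associated with growth restraint and differentiation.

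The mature sequences are shown because reads of the arms differ by few bases and because only adenosines can carry m6A. They were taken from RefSeq (GRCh38.p14), are written 5′ to 3′, and have the seed in capitals.
hsa-miR-26a-5p: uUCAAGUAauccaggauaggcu
hsa-miR-26b-5p: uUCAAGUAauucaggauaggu
hsa-miR-26a-1-3p: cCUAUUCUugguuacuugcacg
hsa-miR-26a-2-3p: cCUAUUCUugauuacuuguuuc
hsa-miR-26b-3p: cCUGUUCUccauuacuuggcu
hsa-miR-4465: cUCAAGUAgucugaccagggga

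Both 5p guides have the seed UCAAGUA and 7 adenosines each. Counted from 1 at the 5′ end, with the base of hsa-miR-26a-5p first, they differ by C11U and C21U over 21 positions, and hsa-miR-26a-5p is 1 base longer. The stretches they share exactly are bases 1 to 10 and bases 12 to 20, 19 bases in all. The authors accepted reads whose exact matches of at least 7 bases covered at least 17 bases, so a full read of either guide also met the criteria for the other and was given to the better match. The 3p arms of miR-26a share the seed CUAUUCU and have 3 adenosines each. They differ by G11A, C19U, A20U, C21U and G22C, with the base of hsa-miR-26a-1-3p first, and share runs of 17 bases in all. The arm hsa-miR-26b-3p has another seed, CUGUUCU, and 2 adenosines. Of the other miRNAs in the count files with a RefSeq sequence, only hsa-miR-4465 had the seed of the miR-26 guides, and it matches hsa-miR-26a-5p in 11 of 22 positions.

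The hairpins are shown with both arms in capitals, because hsa-miR-26a-5p can be cut from either of the first 2 and its reads carry no sign of their origin.
MIR26A1: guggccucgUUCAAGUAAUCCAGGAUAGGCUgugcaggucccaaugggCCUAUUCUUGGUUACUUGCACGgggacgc
MIR26A2: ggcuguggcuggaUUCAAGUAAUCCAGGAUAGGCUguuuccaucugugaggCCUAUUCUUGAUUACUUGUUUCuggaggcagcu
MIR26B: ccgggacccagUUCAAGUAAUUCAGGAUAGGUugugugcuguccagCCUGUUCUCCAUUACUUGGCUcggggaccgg

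MIR26A1 lies at chr3:37969404-37969480 on the plus strand, within the bounds of CTDSPL (chr3:37861880-37984469). MIR26A2 lies at chr12:57824609-57824692 on the minus strand, within CTDSP2 (chr12:57819927-57846729). MIR26B lies at chr2:218402646-218402722 on the plus strand, within CTDSP1 (chr2:218396351-218405941). All 3 positions are in GRCh38.p14, and exon bounds of the host genes were not used here.

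None of the 5 arms holds the core AAC or GAC of the known mRNA methylation motif on the strand as written. That core stands in 36.1% of the 2370 mature human miRNAs of RefSeq. None of the 12 words of the longer motif (the core after a purine, and before any base but G) was found in an arm either, against 20.7% of all mature miRNAs. A further motif of 4 bases, an adenosine, any base but C, a purine and an adenosine, stands in 31.5% of all, and both guides hold it as AGGA while no 3p arm holds any of its 6 words. The words of the core lie inside those of the longer motif, and an absent word says only that these letters are not in the arm. The seed relative hsa-miR-4465 holds GAC.

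In the text, values of 3 libraries are given in the order FTO1C1, FTO2D4, FTO3C3, and RPM are reads per 1000000 miRNA reads of the library. Each counted read matched at least 17 bases of an arm, and RPM were not divided by length. Adapter ligation can favour some sequences and was not measured. The total of miRNA reads was between 1991317 and 3876806 in the knockdown experiment, between 1408702 and 1500357 in input, between 569501 and 4973238 in m6A and between 186446 and 786688 in IgG. Of 6 miRNAs abundant in HEK293, all reached 15 RPM in every library of the scrambled siRNA, FTO siRNA and input groups, and their summed level was 147800 to 236100 RPM in input, 89790 to 116200 RPM in m6A and 1010 to 2419 RPM in IgG. The summed level of 4 blood cell miRNAs was 439 to 874 RPM in input, 794 to 1961 RPM in m6A and 66.1 to 72.5 RPM in IgG, and that of 2 neuronal miRNAs 246 to 634, 24.6 to 52.7 and 17.8 to 51.2 RPM. For 2 listed muscle miRNAs it was 13.3 to 22.6, 40.4 to 103 and 12.1 to 42.9 RPM. Of the 4 blood miRNAs, 1 reached 15 RPM in every input library, 3 in every m6A library and 2 in every IgG library. With FTO siRNA the neuronal sum was 435 to 562.5 RPM against 612 to 879 RPM with scrambled siRNA. That of 2 listed muscle miRNAs was 23.6 to 29.4 against 17.6 to 23.1 RPM. Neither sum overlapped between the groups, a lack of overlap that 28.2% of all 2418 miRNAs shared. In both groups, 1 of the 2 neuronal and 0 of the 2 muscle miRNAs reached 15 RPM in all 3 libraries. The neuronal hsa-miR-124-3p went against its sum, by 0.90 on the log2 scale in edgeR's quasi-likelihood test (adjusted p = 0.0675). The part of these shifts in the miR-26 values was not tested. A single entry, miR-6080, took 15.5 to 28.4% of the reads in input, 41.3 to 47.8% in m6A and 58.0 to 71.6% in IgG, which enters every RPM of those libraries. Its count was the same, 563404 reads, in the FTO2D4 libraries of m6A and IgG, whereas none of 104 other miRNAs with over 200 reads in both had identical counts, so RIP-seq values with totals that leave miR-6080 out are given where they end or make a call or move a fold by over 1.5 times.

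The miR-26 guides were among the abundant miRNAs of these cells, and miR-26a-5p was the main member. With scrambled siRNA, 48783, 36498 and 28735 reads fell on hsa-miR-26a-5p, that is 13409.5, 14813 and 14430.1 RPM (14218 ± 726, SD, n = 3). It ranked 10th to 12th of all miRNAs in these libraries. On hsa-miR-26b-5p fell 6830, 4630 and 5619 reads, or 1877, 1879 and 2822 RPM (2193 ± 545, SD, n = 3), with ranks 49 to 54. The FTO3C3 clone thus stood above the other clones in miR-26b-5p but not in miR-26a-5p.

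The 3p arms were rare beside the guides. With scrambled siRNA, hsa-miR-26b-3p reached 54.2, 44.2 and 67.3 RPM from 197, 109 and 134 reads. The arm hsa-miR-26a-2-3p reached 30.8, 28.8 and 35.7 RPM from 112, 71 and 71 reads. The arm hsa-miR-26a-1-3p reached 13.7, 16.2 and 8.03 RPM from 50, 40 and 16 reads. The ranges of the 5 arms did not overlap in the scrambled siRNA libraries, so the order was miR-26a-5p, miR-26b-5p, miR-26b-3p, miR-26a-2-3p and miR-26a-1-3p. Together the arms made up 1.54 to 1.74% of the miRNA reads, and at least 99.4% of the family's reads were 5p.

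**Figure D1:**
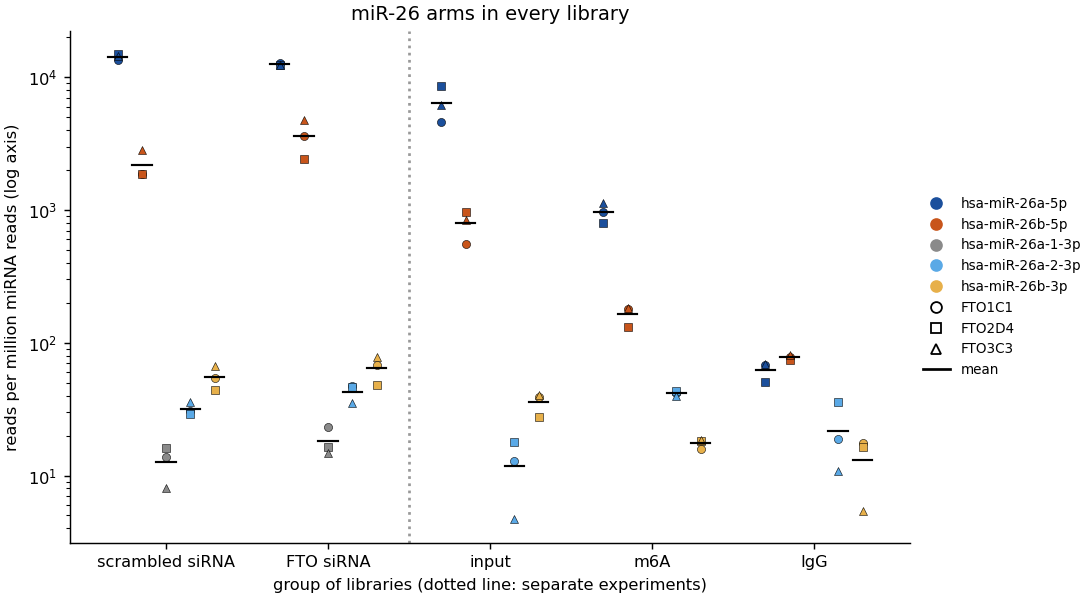
Level of each miR-26 arm in RPM (log axis) in the 3 libraries of every group, with symbols for the clones and a bar for the mean. The guides lie above the 3p arms in every library, and miR-26a-5p falls from 4582 to 8509 RPM in input to 50.8 to 69.7 RPM in IgG. Only in IgG does it lie below miR-26b-5p, within counting error in each library.

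In the input libraries, from a separate experiment, the order was the same for the 4 arms listed there. The levels of hsa-miR-26a-5p were 4582, 8509 and 6118 RPM (6403 ± 1979, SD, n = 3) and those of hsa-miR-26b-5p 556, 972 and 847 RPM (792 ± 214, SD, n = 3). Those of hsa-miR-26b-3p were 39.0, 27.4 and 40.7 RPM, and those of hsa-miR-26a-2-3p 12.8, 17.8 and 4.67 RPM from 18, 26 and 7 reads. No test was made between input and scrambled siRNA libraries, since the experiments were counted separately.

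After FTO knockdown 1 arm of the family, the guide hsa-miR-26b-5p, was called higher. Its counts were 12463, 8310 and 18445, or 3581, 2399.8 and 4758 RPM (3580 ± 1179, SD, n = 3). All 3 clones were higher with FTO siRNA than with scrambled siRNA, by 1.91, 1.28 and 1.69-fold (1.62 ± 0.320, SD, n = 3). FTO2D4 with FTO siRNA lay below FTO3C3 with scrambled siRNA, so the groups overlapped. In edgeR's quasi-likelihood test with the clone as a block, hsa-miR-26b-5p rose by 0.68 on the log2 scale (SE 0.15, Benjamini-Hochberg adjusted p = 0.0347), the only one of the 5 arms called, where 5.48% of the 2374 tested miRNAs were called. That call was not made with TMM factors (adjusted p = 0.294), with DESeq2 (0.227), without the block (0.161), without FTO1C1 (0.287) or without FTO3C3 (0.0547).

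The more abundant guide gave no call. Counts of hsa-miR-26a-5p with FTO siRNA were 44790, 42773 and 47506, or 12870.4, 12352 and 12254 RPM (12492 ± 331, SD, n = 3). The ratios to scrambled siRNA were 0.960, 0.834 and 0.849 (0.881 ± 0.0687, SD, n = 3). The FTO siRNA libraries all lay below the scrambled siRNA libraries, a lack of overlap that 28.2% of the 2418 miRNAs shared. The fitted log2 fold change of -0.19 (SE 0.12) did not pass edgeR's test (adjusted p = 0.363). Its size depended on the scaling, at -0.48 both with TMM factors (adjusted p = 0.147) and with DESeq2 (0.0648), again without a call.

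The 3p arms gave no call after knockdown. The levels of hsa-miR-26a-1-3p were 23.3, 16.5 and 14.7 RPM from 81, 57 and 57 reads, 1.51-fold ± 0.437 (SD, n = 3) of scrambled siRNA, with overlapping groups. Those of hsa-miR-26a-2-3p were 47.1, 46.2 and 35.3 RPM from 164, 160 and 137 reads, 1.38-fold ± 0.335 (SD, n = 3), higher in 2 of 3 clones. Those of hsa-miR-26b-3p were 68.4, 48.2 and 77.9 RPM from 238, 167 and 302 reads, 1.17-fold ± 0.0871 (SD, n = 3), also with overlapping groups. Their fitted log2 fold changes were 0.53, 0.43 and 0.23 with edgeR adjusted p-values of 0.184, 0.217 and 0.453, and that of hsa-miR-26b-3p turned negative with TMM factors (-0.06) and with DESeq2 (-0.07).

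Over the 2374 miRNAs, the fitted log2 fold change had a median of 0.29 under the scaling to total reads and of -0.000347 with TMM factors. Relative to the former, hsa-miR-26a-5p was at -0.48 and at percentile 9.31, and hsa-miR-26b-5p was at 0.39 and at percentile 88.8. The median of the 5 arms was 0.43 on the log2 scale. The arms thus spread around the median of all miRNAs, with the guides on opposite sides.

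The share of miR-26a-5p among the reads of both guides needs no library total. In the scrambled siRNA libraries, 87.7, 88.7 and 83.6% of the guide reads were hsa-miR-26a-5p (86.7 ± 2.70, SD, n = 3). In the FTO siRNA libraries the shares were 78.2, 83.7 and 72.0% (78.0 ± 5.85, SD, n = 3). The share was lower with FTO siRNA in all 3 clones, although FTO2D4 with FTO siRNA and FTO3C3 with scrambled siRNA were close at 83.7 and 83.6% and the groups overlapped. The ratio of hsa-miR-26a-5p to hsa-miR-26b-5p changed by -0.99, -0.61 and -0.99 on the log2 scale within the clones (mean -0.87 ± 0.22, SD, n = 3). The exact two-sided permutation test gave p = 0.2, where 0.1 is the smallest p that 3 against 3 libraries allow, and 0.218 after Benjamini-Hochberg adjustment over the 12 ratio comparisons made here. Exact 95% intervals of each share, which cover counting error only since PCR reads without molecular identifiers are not independent molecules, were narrower than 1 percentage point in these 6 libraries.

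**Figure D2:**
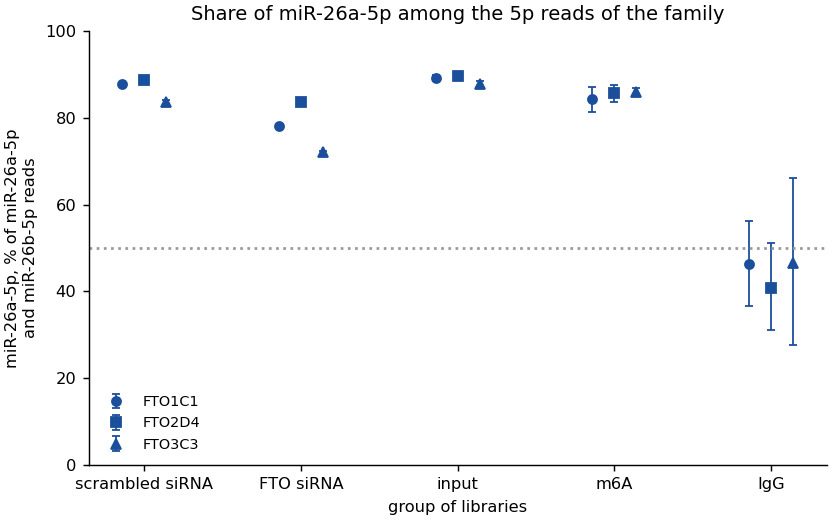
Percent of the reads on both miR-26 guides that were hsa-miR-26a-5p, for each library by group, with exact (Clopper-Pearson) 95% intervals and a dotted line at equal shares. Shares were 72.0 to 88.7% in the knockdown experiment, 87.8 to 89.8% in input, 84.4 to 86.0% in m6A and 40.8 to 46.4% in IgG.

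In m6A against IgG, miR-26a-5p had the largest difference of the 4 arms. The counts of hsa-miR-26a-5p were 553, 1082 and 5596 in m6A and 50, 40 and 13 in IgG. The levels were 971, 794 and 1125 RPM (963 ± 166, SD, n = 3) in m6A and 67.4, 50.8 and 69.7 RPM (62.7 ± 10.3, SD, n = 3) in IgG. The m6A libraries were higher by 14.4, 15.6 and 16.1-fold (15.4 ± 0.892, SD, n = 3), and the groups did not overlap. Its fitted log2 fold change was 3.93 (SE 0.29, edgeR adjusted p = 1.398e-05), the 113th highest of 2054 tested miRNAs. The call held under every alternative run, with log2 fold changes of 3.15 to 3.98, and with totals without miR-6080 it was 3.24.

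The other guide was higher in m6A as well, but by far less. Counts of hsa-miR-26b-5p were 102, 179 and 914 in m6A and 58, 58 and 15 in IgG. The levels were 179, 131 and 184 RPM (165 ± 29.0, SD, n = 3) in m6A and 78.2, 73.7 and 80.5 RPM (77.5 ± 3.43, SD, n = 3) in IgG. The m6A libraries were higher by 2.29, 1.78 and 2.28-fold (2.12 ± 0.292, SD, n = 3), and the groups did not overlap. Its fitted log2 fold change was 1.07 (SE 0.32, edgeR adjusted p = 0.0252), close to 0.83, the median of the 2054 miRNAs under this scaling (0.06 with TMM factors). The call was lost with TMM factors, with DESeq2, with totals without miR-6080 (log2 fold change 0.38) and without any 1 clone, with adjusted p-values between 0.0828 and 0.651.

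Neither 3p arm was called in m6A against IgG. The arm hsa-miR-26a-2-3p had 42.1, 43.3 and 39.8 RPM in m6A (24, 59 and 198 reads) and 18.9, 35.6 and 10.7 RPM in IgG (14, 28 and 2 reads), which is higher in all 3 clones, by 2.39-fold ± 1.25 (SD, n = 3), with no overlap. Its fitted log2 fold change of 0.90 (SE 0.43) did not pass (edgeR adjusted p = 0.124), and was 0.10 with TMM factors and 0.15 both with DESeq2 and with totals without miR-6080. The arm hsa-miR-26b-3p had 15.8, 18.3 and 18.5 RPM in m6A (9, 25 and 92 reads) and 17.5, 16.5 and 5.36 RPM in IgG (13, 13 and 1 reads), with overlapping groups. Its fitted log2 fold change of 0.30 (SE 0.49, edgeR adjusted p = 0.655) turned negative with TMM factors (-0.49) and with DESeq2 (-0.44). The median miRNA of these libraries had 25, 67 and 269 reads in m6A and 17, 16 and 6 in IgG, and hsa-miR-26b-3p lay below it in all 6 libraries.

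Of the 4 arms, 2 were called in m6A against IgG, both higher, where 39.8% of all tested miRNAs were called. The RPM of the m6A and IgG groups did not overlap for 3 of 4 arms, against 51.3% of all 2189 miRNAs. Relative to the median of all miRNAs, hsa-miR-26a-5p was at 3.10 on the log2 scale, hsa-miR-26b-5p at 0.23, hsa-miR-26a-2-3p at 0.07 and hsa-miR-26b-3p at -0.53. The guides were thus set apart from each other more than hsa-miR-26b-5p was from the typical miRNA.

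Within the libraries, the mixture of the guides differed between m6A and IgG. In m6A the share of hsa-miR-26a-5p among guide reads was 84.4, 85.8 and 86.0% (85.4 ± 0.841, SD, n = 3), and in IgG it was 46.3, 40.8 and 46.4% (44.5 ± 3.20, SD, n = 3). The exact 95% intervals of the IgG libraries were 36.6 to 56.1%, 31.0 to 51.2% and 27.5 to 66.1%, the widest resting on 13 and 15 reads. All of them lay below those of m6A, the lowest of which began at 81.4%. The ratio of hsa-miR-26a-5p to hsa-miR-26b-5p was 6.29, 8.76 and 7.06 times higher in m6A than in IgG of the same clone, a mean difference of 2.87 ± 0.24 on the log2 scale (SD, n = 3). The exact two-sided permutation test gave p = 0.1, the smallest that this design allows, and 0.133 after adjustment over the 12 comparisons, so it could not reach 0.05.

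Against input, the guides were lower in both precipitates. These comparisons use the same m6A and IgG libraries as the one above, so their values stand side by side and are not independent. The ratios of m6A to input were 0.212, 0.0933 and 0.184 for hsa-miR-26a-5p and 0.322, 0.135 and 0.217 for hsa-miR-26b-5p. The fitted log2 fold changes were -2.70 (SE 0.44) and -2.25 (SE 0.42), with edgeR adjusted p-values of 4.533e-06 and 2.349e-05. These were low places among all 2174 tested miRNAs, percentiles 3.17 and 4.23, where the median was 1.65 on the log2 scale. With TMM factors that median was 0.10 and the guides were at -4.25 and -3.80, so the direction held under either scaling.

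The 3p arms did not move together in m6A against input. The levels of hsa-miR-26a-2-3p in m6A were 3.30, 2.43 and 8.53 times those in input, where FTO3C3 input held 7 reads. It rose by 1.95 on the log2 scale (SE 0.41, edgeR adjusted p = 0.000131), near the median of all miRNAs, and by 0.41 with TMM factors and 0.42 with DESeq2, where the call was lost (adjusted p = 0.333 and 0.510). The ratios of hsa-miR-26b-3p were 0.405, 0.669 and 0.455, and its fitted log2 fold change was -0.99 (SE 0.38, edgeR adjusted p = 0.0186). That call was lost with totals without miR-6080 (-0.52, adjusted p = 0.269), without FTO1C1 (0.0895) and without FTO3C3 (0.0770), whereas the log2 fold change was -2.56 with TMM factors (adjusted p = 0.000289) and -2.59 with DESeq2 (1.253e-07). All 4 arms were called in m6A against input, 1 higher and 3 lower, where 77.3% of all tested miRNAs were called, and none of the 4 overlapped between the groups, against 79.1% of all.

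In IgG against input the guides differed more from each other than in the other 3 comparisons, with a log2 difference of their ratio of -3.33. The ratio was 0.0147, 0.00598 and 0.0114 for hsa-miR-26a-5p and 0.141, 0.0758 and 0.0950 for hsa-miR-26b-5p. The fitted log2 fold changes were -6.65 (SE 0.49, edgeR adjusted p = 2.759e-39) and -3.31 (SE 0.45, adjusted p = 1.934e-12), at percentiles 1.70 and 8.96 of 1941 tested miRNAs. With totals without miR-6080 they were -5.50 and -2.16, and both calls held. The size of the adjusted p of hsa-miR-26a-5p depended on the fit, from 2.777e-67 with DESeq2 to 3.819e-13 in edgeR with TMM factors. The ratio was 1.48, 2.00 and 2.30 for hsa-miR-26a-2-3p, with a fitted log2 fold change of 0.85 (SE 0.55, adjusted p = 0.174) that passed only with totals without miR-6080 (2.03, adjusted p = 0.000134). It was 0.449, 0.603 and 0.132 for hsa-miR-26b-3p, with a fitted log2 fold change of -1.25 (SE 0.55, adjusted p = 0.0383) that did not pass with totals without miR-6080 (-0.08, adjusted p = 0.893), without FTO1C1 (0.170) or without FTO3C3 (0.138). That call held with TMM factors (-1.69, adjusted p = 0.00363) and with DESeq2 (-1.85, 0.00638). Of the 4 arms, 3 were called, all lower, where 58.6% of all tested miRNAs were called, and the groups did not overlap for the same 3 arms, against 60.8% of all.

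The m6A mixture of the guides was closer to that of input than the IgG mixture was. In input 89.2, 89.7 and 87.8% of the guide reads were hsa-miR-26a-5p (88.9 ± 0.981, SD, n = 3). The ratio of hsa-miR-26a-5p to hsa-miR-26b-5p was 0.658, 0.691 and 0.848 times that of input in m6A and 0.105, 0.0788 and 0.120 times in IgG. Both differences had the same direction in 3 of 3 clones and no overlap, with p = 0.1 in the exact permutation test.

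**Figure D3:**
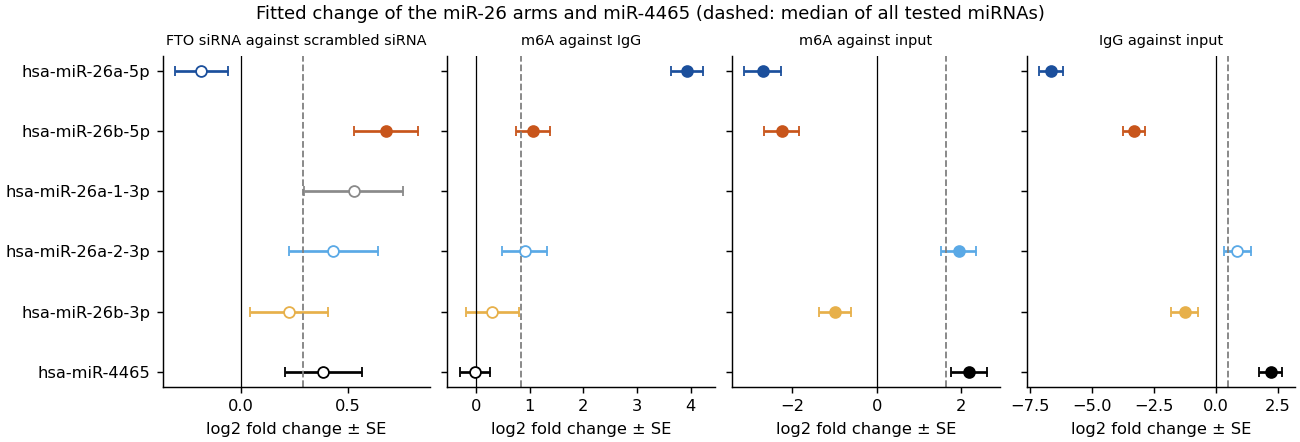
Fitted log2 fold change from edgeR, with an SE derived from its F statistic, for the miR-26 arms and hsa-miR-4465 in the 4 comparisons. Points are filled where the adjusted p was under 0.05, and the median of all tested miRNAs is dashed. In m6A against IgG hsa-miR-26a-5p lies at 3.93 while the other arms lie between 0.30 and 1.07, and in both comparisons with input the guides lie far below the median.

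The number of 5p reads per 3p read of the same hairpin was compared in the same way. In scrambled siRNA there were 436, 514 and 405 reads of hsa-miR-26a-5p for each read of hsa-miR-26a-2-3p (451.5 ± 56.4, SD, n = 3), and in FTO siRNA 273, 267 and 347 (295.7 ± 44.3, SD, n = 3). The guide of miR-26a also comes from MIR26A1, so this is no ratio of 1 hairpin. There were 34.7, 42.5 and 41.9 reads of hsa-miR-26b-5p for each read of hsa-miR-26b-3p in scrambled siRNA (39.7 ± 4.36, SD, n = 3) and 52.4, 49.8 and 61.1 in FTO siRNA (54.4 ± 5.93, SD, n = 3). The 5p to 3p ratio thus lay lower with FTO siRNA for miR-26a and higher for miR-26b, in 3 of 3 clones each and with no overlap. On the log2 scale the mean differences were -0.61 ± 0.36 and 0.46 ± 0.20 (SD, n = 3), each with p = 0.1 in the exact permutation test and 0.133 after adjustment.

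In both precipitates of each clone, the arms were less unequal than in its input, although for miR-26b the IgG and input groups overlapped. In input there were 359, 478 and 1311 reads of hsa-miR-26a-5p for each read of hsa-miR-26a-2-3p, in m6A 23.0, 18.3 and 28.3, and in IgG 3.57, 1.43 and 6.50. The last of these rests on 13 and 2 reads, with an exact 95% interval of the ratio from 1.47 to 59.3. For miR-26b, 5p reads per 3p read were 14.2, 35.5 and 20.8 in input, 11.3, 7.16 and 9.94 in m6A, and 4.46, 4.46 and 15 in IgG, where FTO3C3 rests on 15 and 1 reads with an interval from 2.31 to 631.5. The miR-26a ratio was higher in m6A than in IgG in 3 of 3 clones with no overlap (exact permutation p = 0.1), whereas the miR-26b ratio was higher in 2 of 3 clones and the groups overlapped (exact permutation p = 0.4). As a share of all miR-26 reads, the guides made up 99.0 to 99.5% in input, 93.8 to 95.7% in m6A and 70.5 to 90.3% in IgG.

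**Figure D4:**
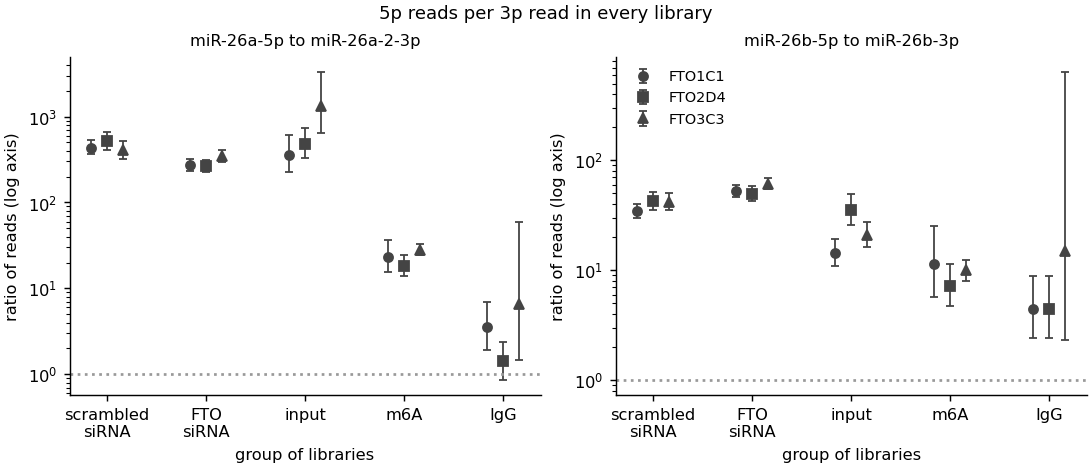
Number of 5p reads per 3p read (log axis) in every library, for miR-26a-5p against miR-26a-2-3p and for miR-26b-5p against miR-26b-3p, with exact 95% intervals for counting error. The miR-26a ratio runs from 267 to 1311 in scrambled siRNA, FTO siRNA and input to 18.3 to 28.3 in m6A and 1.43 to 6.50 in IgG, and the intervals of IgG FTO3C3 span more than a 10-fold range.

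The family as a whole took 0.519, 0.953 and 0.701% of the miRNA reads in input, 0.121, 0.0987 and 0.137% in m6A and 0.0182, 0.0177 and 0.0166% in IgG. The order of the arms also differed between the groups. In m6A hsa-miR-26a-2-3p lay above hsa-miR-26b-3p in all 3 clones, with no overlap, which is the reverse of input. In IgG hsa-miR-26b-5p lay above hsa-miR-26a-5p without overlap, and hsa-miR-26a-2-3p and hsa-miR-26b-3p overlapped. In each IgG library the exact 95% interval of the share of hsa-miR-26a-5p included equal shares, so that order of the guides lies within counting error.

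The seed relative hsa-miR-4465 had another pattern than the guides. Its levels were 60.7, 113 and 98.9 RPM with scrambled siRNA and 85.3, 161 and 111 RPM with FTO siRNA, with overlapping groups (edgeR adjusted p = 0.201). In the RIP-seq libraries they were 27.7, 65.8 and 33.3 RPM in input, 158, 170.2 and 225 RPM in m6A and 156, 169 and 241 RPM in IgG. The ratios of m6A to IgG were 1.01, 1.01 and 0.931, with a fitted log2 fold change of -0.03 (SE 0.28, edgeR adjusted p = 0.953). This value depended on the scaling, and was -0.77 with TMM factors (adjusted p = 0.0569), -0.81 with DESeq2 (0.0971) and -0.71 with totals without miR-6080 (0.102). Against input it rose by 2.20 on the log2 scale in m6A (SE 0.43, adjusted p = 4.215e-05) and by 2.22 in IgG (SE 0.46, adjusted p = 7.497e-06), the latter by 3.35 with totals without miR-6080. The m6A call was lost with TMM factors (0.65) and with DESeq2 (0.63). A further miRNA with this seed in RefSeq, hsa-miR-1297, was not analysed here.

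Other miRNAs followed the guides over the 15 libraries more closely than the guides followed each other. Among 1026 miRNAs listed in both experiments that reached 15 RPM in every scrambled siRNA library, Pearson's r of log2(RPM + 1) with hsa-miR-26a-5p was highest for hsa-miR-484 (0.995), hsa-miR-370-3p (0.994), hsa-miR-577 (0.991), hsa-miR-4454 (0.989) and hsa-miR-192-5p (0.986). With hsa-miR-26b-5p it was highest for hsa-miR-454-3p (0.986), hsa-miR-3182 (0.981), hsa-miR-5685 (0.975), hsa-miR-30a-3p (0.971) and hsa-miR-128-3p (0.970). The guides had r = 0.936 with each other, which put hsa-miR-26b-5p at place 92 of the list of hsa-miR-26a-5p and hsa-miR-26a-5p at place 45 of the list of hsa-miR-26b-5p. Of the 3p arms, hsa-miR-26b-3p had r = 0.868 and hsa-miR-26a-2-3p r = 0.141 with hsa-miR-26a-5p. The 15 libraries fall into 5 groups of differing depth that share totals, so these values describe the order of groups and carry no test.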

How the data were processed

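Small RNA libraries of 3 clones in 5 groups were used (15 libraries). The authors trimmed adapters with cutadapt, kept reads of 16 to 28 bp, matched them to the mature miRNAs of miRBase release 20 and deposited raw counts of reads per miRNA, with no alignment to a genome. Names matched a RefSeq sequence for 87.8% of the rows of either count table.

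RPM were computed against the total of miRNA reads. The counts of all miRNAs were tested with edgeR 4.0.16 in R 4.3.3 (quasi-likelihood test, filterByExpr with a minimum count of 10, library size equal to the total miRNA reads, clone as a block) with Benjamini-Hochberg adjustment at 0.05, after a check on simulated counts. The SE beside an edgeR log2 fold change was derived from the test, as the size of the change divided by the root of its F statistic. Ratios within a library were compared by exact two-sided permutation tests. Levels and ratios were computed in Python 3.11.15 (scipy 1.17.1, pandas 2.3.3, numpy 2.4.6) and drawn with matplotlib 3.10.9. Alternatives were TMM factors, DESeq2 1.42.0, no filter, no block, totals without miR-6080, 0.5 reads added to ratios, and each clone left out.

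The clone pairs the libraries, since equal names are the same clone. Deviations of paired libraries from their group means correlated at 0.265 to 0.386 in the knockdown, 0.0852 to 0.120 for m6A and IgG, -0.127 to -0.044 for m6A and input, and 0.0129 to 0.172 for IgG and input. Libraries of a group differed by more than sampling noise (chi-square per degree of freedom 7.79 to 166.5).

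The members and lists were chosen with earlier results of these data known. Named miRNAs were the 5 arms, the listed miRNAs with the seed of miR-26a-5p, and the 5 most alike each guide by Pearson's r. Marker lists for other cells were 4 blood, 4 muscle (2 listed) and 2 neuronal miRNAs and 1 hepatocyte miRNA. The blood list summed to 69.5 to 96.9 RPM with scrambled and 78.5 to 114 RPM with FTO siRNA, and the hepatocyte miRNA had 5.22 to 7.03 and 5.46 to 6.19 RPM.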

Additional observations from a re-analysis of the deposited data

How the results depend on the processing

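Directions of both guides held in all 4 comparisons under every alternative run, and miR-26a-5p kept its side of the threshold in each. The log2 fold change of miR-26b-5p after knockdown lost its call with TMM factors (0.39), with DESeq2 (0.39) and with no replicate block, that is without the pairing by clone (0.71), and ranged from 0.55 to 0.84 with 1 clone left out (adjusted p = 0.287 without FTO1C1, 0.00204 without FTO2D4 and 0.0547 without FTO3C3). In m6A against IgG its log2 fold change was 0.31 with TMM factors, 0.28 with DESeq2 and 0.38 with totals without miR-6080, and 1.00 to 1.19 with 1 clone left out, none of them called. The number of arms called after knockdown was 0 with TMM factors, with DESeq2 and with no replicate block, and 0 to 1 with 1 clone left out. With DESeq2, miR-26a-1-3p had no adjusted p. With library totals and the block, edgeR's unadjusted p was under 0.05 for miR-26b-5p (0.00117) and miR-26a-1-3p (0.0461). In m6A against IgG it was 1 with TMM factors, with DESeq2, with totals without miR-6080 (3 arms tested) and with any 1 clone left out. Signs turned for miR-26b-3p after knockdown (-0.063 with TMM factors, -0.067 with DESeq2) and in m6A against IgG (-0.49 and -0.44), and for miR-4465 in m6A against IgG (-0.045 to 0.012 with 1 clone left out, from -0.71 to -0.81 with TMM factors, DESeq2 or totals without miR-6080). The block changed no other call. With the pairing by clone, exact sign-flip tests of the ratios gave p = 0.25, the smallest that 3 clones allow, except 0.5 for miR-26b-5p to miR-26b-3p in m6A against IgG. Adding 0.5 reads to both counts turned no ratio.

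Counts over all miRNAs moved with the scaling, with the block and with the clones used. After knockdown 118 were higher and 12 lower, against 21 and 34 with TMM factors and 33 and 61 with DESeq2. DESeq2 gave no adjusted p for 1611 of the 2374 miRNAs there, so its counts rest on fewer miRNAs. Called were 41 in all without the block, 201 in all without FTO3C3, and 0 without FTO1C1, where 327 had an unadjusted p under 0.05. In m6A against IgG 792 were higher and 26 lower, against 453 and 302 with TMM factors, 367 and 249 with DESeq2, 446 and 257 without miR-6080 in the totals, and 470 in all without FTO2D4. In m6A against input 1452 and 229 became 575 and 614 with TMM factors and 491 and 595 with DESeq2. In IgG against input 714 and 423 became 559 and 586, 447 and 534, and 1231 and 273 without miR-6080 in the totals. The cause was not tested. The IgG values rest on 13 to 50 reads of miR-26a-5p and 1 to 28 of the 3p arms.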

Other observations

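The counts of hsa-miR-26b-5p (58 reads) and hsa-miR-26b-3p (13 reads) were the same in the IgG libraries of FTO1C1 and FTO2D4. These libraries had totals of 741432 and 786688 reads and median counts of 17 and 16, and ties over all miRNAs were not counted. The libraries as a whole differed by more than sampling noise (chi-square per degree of freedom 15.4). The count of miR-6080 was identical, at 563404 reads, in the IgG and m6A libraries of FTO2D4, and whether it was read from the same library was not tested.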
